A study of Mus musculus with 4 samples.

Results

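The genes described here are 10 receptors for acetylcholine and the monoamines: the muscarinic receptors Chrm1, Chrm2, Chrm3 and Chrm4, the nicotinic subunits Chrna4 and Chrna7, the α1-adrenergic receptors Adra1a and Adra1b, the serotonin receptor Htr2c and the dopamine receptor Drd1. They were taken by symbol from the 43348 genes of the count files, and all 10 were found there. Acetylcholine, noradrenaline, serotonin and dopamine reach cortex and hippocampus through the long axons of basal forebrain and brainstem neurons and change how readily local interneurons fire. Chrm1, Chrm3, the α1-adrenergic receptors and Htr2c couple mainly to Gq proteins and phospholipase C, Chrm2 and Chrm4 to inhibitory Gi and Go proteins, and Drd1 to the stimulatory Gs and Golf proteins. The nicotinic subunits form ion channels that acetylcholine opens directly.

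The counts come from droplet single-cell RNA-seq (10x Genomics, 3′ ends) of TdTomato-positive cells sorted from frontal cortex and hippocampus of juvenile mice, postnatal days 18 to 20. Every animal carried Nkx2-1-Cre and the Ai14 reporter, which makes TdTomato wherever Cre has acted, so the sort takes cells whose ancestors expressed Nkx2-1, chiefly interneurons born in the medial ganglionic eminence (MGE) together with oligodendrocyte-lineage cells. The WT groups were Grin1 wt/wt littermates, with 3 libraries from cortex and 3 from hippocampus. In the null groups, with 2 libraries per region, the same Cre removed floxed Grin1 (Grin1 fl/fl), which encodes the obligate subunit of NMDA-type glutamate receptors. Deletion started in the progenitors, animals of both sexes were used, and the tissue of all groups was handled in buffers with tetrodotoxin, APV and actinomycin D.

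After filtering, 26201 of 26987 cells remained. The libraries differed in depth. WT cortex replicates 1, 2 and 3 held 9306756, 14212183 and 28057207 UMIs (counted molecules), and WT hippocampus replicates 1, 2 and 3 held 10555408, 8782181 and 20639002. The null cortex libraries held 1488601 and 25688337 UMIs and the null hippocampus libraries 3856745 and 47338167. Several libraries stood apart. Median UMIs per kept cell were lowest in replicate 2 of WT hippocampus (1479) and WT cortex (2912.5) and highest in null hippocampus replicate 2 (9763). Null cortex replicate 1 kept only 177 cells, and null hippocampus replicate 1 kept 401. Cells over the limit of 30% mitochondrial UMIs were 9.90% of null cortex replicate 2 and 5.97% of null hippocampus replicate 2, but at most 0.127% of any WT library. The first replicates used the older 10x reagents (version 2), the later ones version 3. Of the 45 pairs of libraries, 22 shared any cell barcode, at most 12 barcodes per pair.

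Clusters were named from marker genes, with the receptors themselves left out of the genes that formed the clusters. In WT, 3632 cells were somatostatin interneurons (SST), 517 were Th-expressing interneurons (TH), 1580 were parvalbumin interneurons (PVALB) and 1328 were neurogliaform cells (NGFC). A cluster of 1031 cells of low depth (median 1134 UMIs) met the SST markers but had none of them among its leading genes and was left out, and 430 of its cells came from WT hippocampus replicate 2, where 395 cells were kept in the SST class with TH cells. Levels are given in CPM, the UMIs of a gene scaled to all UMIs of its class, as a mean ± SD over libraries. They can be compared for a gene across classes, not between genes, since 3′ counting does not see every transcript equally. Differences between classes or groups were tested with edgeR on UMIs summed per library and class, with TH cells counted in the SST class. A gene passed at a Benjamini-Hochberg adjusted p under 0.01 and an absolute natural-log change of at least 0.1. The ± after a log2 difference is its standard error.

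Grin1, the deleted gene, followed the genotype labels. In SST cells with TH cells, the WT cortex libraries held 152.5, 253.1 and 230.9 CPM and the WT hippocampus libraries 120.9, 190.7 and 157.2, while the null cortex libraries held 36.3 and 28.9 and the null hippocampus libraries 23.9 and 21.8. PVALB cells held 113.8 to 213.7 CPM in WT cortex and 102.2 to 164.5 in WT hippocampus, against 43.1 and 21.2 in null cortex and 23.5 and 16.5 in null hippocampus. NGFC cells held 117.1 to 182.6 CPM in WT cortex and 110.7 to 133.7 in WT hippocampus, against 29.7 and 15.5 in null hippocampus and 33.1 in the null cortex library with enough cells. Every null library thus lay below every WT library of its class and region. The log2 differences were −2.72 and −2.77 in SST cells of cortex and hippocampus, −2.60 and −2.83 in PVALB cells, and −2.50 in hippocampal NGFC cells. In the filtered edgeR fits none of these passed the threshold (Benjamini-Hochberg adjusted p = 0.0393, 0.0348, 0.0312, 0.116 and 0.443, lower in both null libraries of each group). All 5 passed with DESeq2 and in edgeR without a count filter, and the SST differences and that of cortical PVALB cells passed at an adjusted limit of 0.05. Over all alternatives the log2 differences lay between −3.02 and −1.92.

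The muscarinic receptors differed in which interneuron class held most of them. Chrm3, which drives excitation through Gq, was an SST gene: its WT level was 33.1 ± 7.71 CPM in SST cells, 10.7 ± 3.96 in TH cells, 9.63 ± 2.69 in PVALB cells and 6.49 ± 3.58 in NGFC cells (6 libraries, 5 for TH). Over the 6 WT libraries, SST cells ranged from 22.3 to 44.1 CPM and PVALB cells from 7.15 to 14.6, so these classes did not overlap. The spreads (mean ± SD) of TH, PVALB and NGFC levels overlapped. At least 1 Chrm3 UMI was seen in 21.6% of WT SST cells (95% Wilson interval 20.3 to 23.0%, median 7245.5 UMIs per cell), 6.08% of PVALB cells (median 6798) and 2.94% of NGFC cells (median 3462.5). Oligodendrocytes showed it in 0.0684% (median 3501) and microglia in 0.483% (median 1096). Cells with at least 1000 UMIs were also thinned to that depth, which left out 13 SST, 20 PVALB and 147 NGFC cells, and the shares were then 3.29, 0.833 and 0.677%.

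Chrm2, the inhibitory muscarinic receptor, showed another order. Its WT level was highest in TH cells (86.5 ± 25.8 CPM), intermediate in SST (38.7 ± 22.3) and PVALB cells (30.01 ± 23.0), which overlapped, and near zero in NGFC cells (2.11 ± 2.47). The gene was seen in 43.7% of WT TH cells (Wilson interval 39.5 to 48.0%), 16.2% of SST cells, 12.0% of PVALB cells and 0.904% of NGFC cells, beside 0.0855% of oligodendrocytes and 0 of 207 microglia. Thinned to 1000 UMIs, Chrm2 was found in 10.1% of TH cells, 3.21% of SST cells, 2.69% of PVALB cells and 0 NGFC cells.

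Chrm1, the main Gq-coupled muscarinic receptor of cortical pyramidal cells, ran the opposite way and with a smaller range: 17.1 ± 3.95 CPM in SST, 25.2 ± 5.23 in TH, 27.9 ± 7.88 in PVALB and 32.5 ± 7.59 in NGFC cells, where the last 3 did not differ beyond their spread. Chrm1 was seen in 12.4% of SST, 17.4% of TH, 15.8% of PVALB and 13.8% of NGFC cells, and in 0.0684% of oligodendrocytes. Chrm4, the other Gi-coupled member, was barely counted: 15 UMIs over all WT interneurons, in 0.213% of the cells, with no class above 1.05 CPM. In the filtered edgeR fits it fell under the count filter and has no test there.

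Among the nicotinic subunits, Chrna4, which pairs with the β2 subunit in the common high-affinity brain receptor, was also highest in SST cells. Its WT level was 20.9 ± 7.37 CPM in SST, 11.0 ± 3.69 in TH, 6.26 ± 3.42 in NGFC and 2.31 ± 1.94 in PVALB cells. The 6 WT libraries ranged from 12.4 to 29.4 CPM in SST cells and from 0 to 4.59 in PVALB cells, without overlap. Cells with a Chrna4 UMI were 15.9% of SST, 7.93% of TH, 2.79% of NGFC and 2.28% of PVALB cells, beside 0.0342% of oligodendrocytes, and 2.71, 0.774, 0.508 and 0.256% of the classes in that order after thinning. Chrna7, whose subunits form the fast homomeric receptor, gave 47 UMIs in WT interneurons. Its mean was 2.30 ± 3.25 CPM in NGFC cells and 1.26 ± 1.59 in SST cells, within each other’s spread, and no WT library exceeded 7.21 CPM in a class. Like Chrm4, it fell under the count filter of the filtered edgeR fits and has no test there.

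The α1-adrenergic receptors, which carry the Gq response to noradrenaline, went in opposite directions. Adra1a was highest in NGFC cells at 73.3 ± 33.9 CPM, followed by PVALB (36.4 ± 13.3) and TH cells (35.7 ± 18.8), which were alike, and SST cells (19.6 ± 7.47). It was seen in 21.5% of NGFC, 26.5% of PVALB, 21.1% of TH and 12.2% of SST cells, or in 5.84, 4.04, 3.68 and 1.96% after thinning to equal depth, and in 0.308% of oligodendrocytes. Adra1b lay at 18.6 ± 7.36 CPM in SST and 19.4 ± 12.1 in TH cells, which did not differ beyond their spread, at 9.09 ± 7.46 in PVALB cells and at 2.92 ± 2.67 in NGFC cells. Its shares of cells were 11.9, 12.2, 8.16 and 1.58%. For Adra1b the oligodendrocytes were not empty, with 1.32% of cells and 79 UMIs.

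Htr2c, a Gq-coupled serotonin receptor, had its highest interneuron level in PVALB cells (36.8 ± 28.6 CPM), then NGFC (16.1 ± 20.0), SST (10.6 ± 6.44) and TH cells (6.95 ± 8.84). The libraries spread so widely that neighbours in this order overlapped: WT PVALB cells ranged from 16.7 to 90.5 CPM, and the highest value was that of hippocampus replicate 1. Drd1, the Gs-coupled dopamine receptor, was a TH gene among these classes, at 35.4 ± 17.1 CPM, against 11.7 ± 2.83 in PVALB, 8.43 ± 7.33 in SST and 1.49 ± 1.19 in NGFC cells. It was seen in 21.9% of TH, 7.47% of PVALB, 5.78% of SST and 0.527% of NGFC cells, beside 0.0171% of oligodendrocytes.

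**Figure D1:**
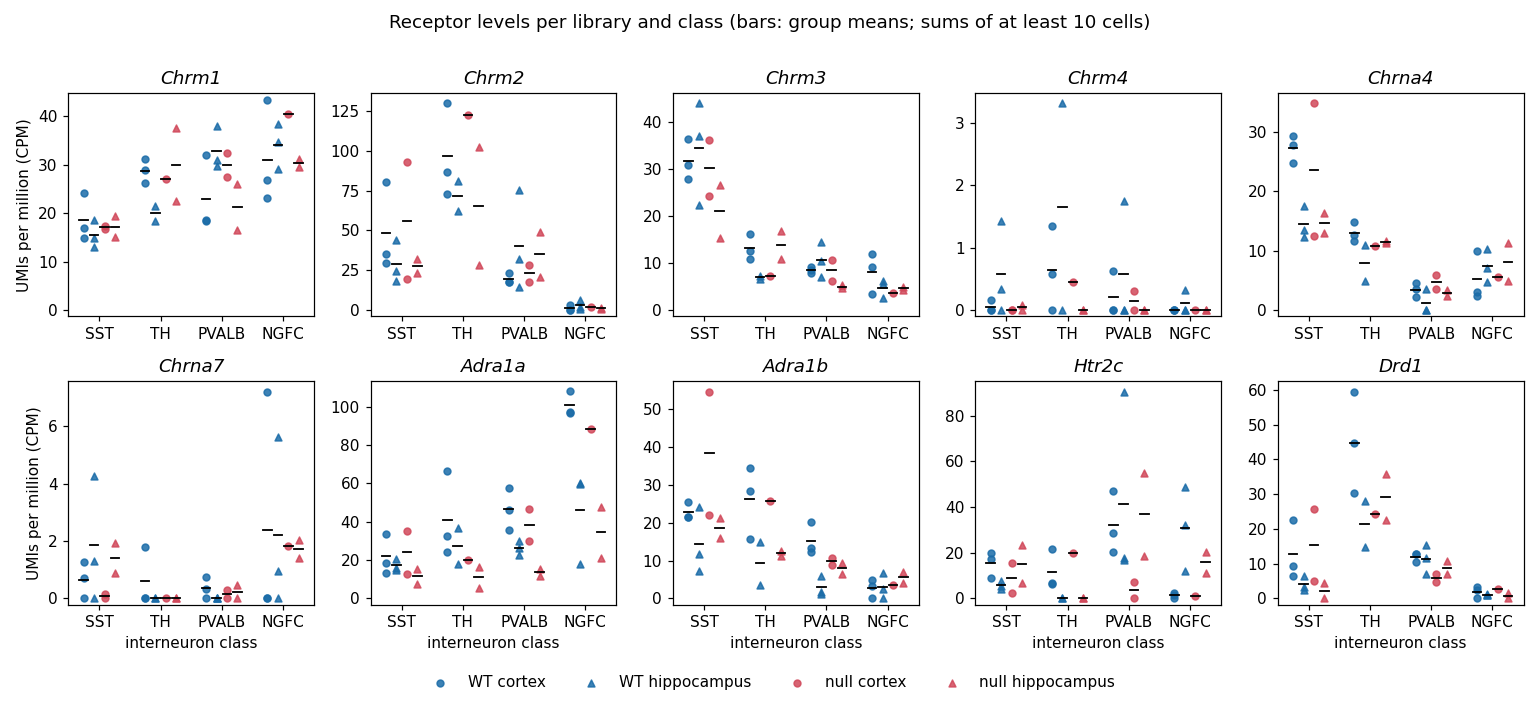
Level of each receptor (CPM, linear axis) by interneuron class, where each point is a library with at least 10 cells of the class and each bar is the mean of a genotype and region. Over the WT libraries, Chrm3 and Chrna4 are highest in SST cells, Chrm2 and Drd1 in TH cells, Adra1a in NGFC cells and Htr2c in PVALB cells.

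The first tested contrast asked which receptors separate SST from PVALB interneurons within the same WT library. Chrna4 and Chrm3 were the strongest: they were higher in SST cells by 2.88 ± 0.26 and 1.85 ± 0.17 on the log2 scale (edgeR with Benjamini-Hochberg adjustment, adjusted p = 4.84e-08 and 3.69e-08, higher in 6 of 6 libraries each). Adra1a was lower in SST cells by a log2 difference of −0.86 ± 0.18 (edgeR adjusted p = 0.00102, lower in 6 of 6 libraries). Chrm2 (0.93 ± 0.25, edgeR adjusted p = 0.00584, higher in 4 of 6), Adra1b (0.87 ± 0.25, 0.00982, higher in 6 of 6) and Htr2c (−1.396 ± 0.38, 0.00773, lower in 6 of 6) passed narrowly. In all, 6 of the 8 receptors tested passed, 4 higher and 2 lower in SST cells, where 22.7% of the 9815 genes tested passed. The median log2 difference was 0.48 for the receptors and −0.00 for all genes. Chrm1 did not pass (−0.43, edgeR adjusted p = 0.0326, lower in 6 of 6 libraries), nor did Drd1 (0.10, adjusted p = 0.808, higher in 3 of 6), whose direction turned without the Chodl cluster (below).

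The narrow calls depended on choices that the strong ones did not. Under DESeq2, 3 receptors passed, and Chrm2, Adra1b and Htr2c did not. A model without the library term ended those 3 calls and that for Adra1a, leaving Chrm3 and Chrna4. Leaving out any of the 3 WT cortex libraries ended the Chrm2 call. The Adra1b call was lost on leaving out any library except WT hippocampus replicate 3, and also with library-size scaling or without the cells marked as doublets. The Htr2c call was lost without WT cortex replicate 1 or 2 or WT hippocampus replicate 1 or 3, and the Adra1a call without WT cortex replicate 3. Over these fits and that without the Chodl cluster, described below and chosen after seeing the data, the log2 difference ranged from 0.22 to 1.24 for Chrm2, from 0.34 to 1.07 for Adra1b, from −1.69 to −1.11 for Htr2c and from −1.31 to −0.70 for Adra1a, with adjusted p up to 0.451, 0.383, 0.152 and 0.143 (edgeR or DESeq2).

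Against NGFC cells, the SST class differed in 7 of the 8 receptors tested, with 24.6% of all 9815 genes passing. Chrm2 was higher in SST cells by 4.22 ± 0.48, Drd1 by 3.04 ± 0.49, Chrm3 by 2.29 ± 0.21, Adra1b by 2.11 ± 0.39 and Chrna4 by 1.41 ± 0.28 on the log2 scale (edgeR adjusted p = 7.48e-07, 5.14e-05, 4.18e-08, 0.000223 and 0.000464, each higher in 6 of 6 libraries). In the SST class the WT libraries held 28.7 to 84.9 CPM of Chrm2, and in NGFC cells 0 to 6.43. Adra1a and Chrm1 were lower in SST cells, by log2 differences of −1.84 ± 0.19 and −0.88 ± 0.17 (edgeR adjusted p = 1.74e-07 and 0.000288, lower in 5 of 6 and in 6 of 6 libraries). The exception for Adra1a was WT hippocampus replicate 1, with 18.0 CPM in NGFC cells where the others held 59.9 to 108.1. Htr2c did not pass (−0.82, edgeR adjusted p = 0.227, lower in 3 of 6), except in the fit without a count filter (−0.77, adjusted p = 0.00137). The median was 1.76 for the receptors and −0.02 for all genes. No alternative and no left-out library ended any of these 7 calls.

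PVALB and NGFC cells differed in 4 receptors, beside 24.1% of all genes. Chrm2 and Drd1 were higher in PVALB cells by 3.28 ± 0.58 and 2.94 ± 0.53 on the log2 scale (edgeR adjusted p = 0.000153 and 0.000188, higher in 6 of 6 libraries each). Adra1a and Chrna4 were lower in PVALB cells, at −0.98 ± 0.20 and −1.48 ± 0.42 (edgeR adjusted p = 0.000705 and 0.00905, lower in 5 of 6 each). The receptors' median was 0.51 and that of all genes −0.02. Without the library term the Adra1a call was lost (adjusted p = 0.0827), and that for Chrna4 was lost without the library term, under DESeq2, or on leaving out any library except WT cortex replicate 3 (adjusted p up to 0.118). Adra1b, at 1.23 and an edgeR adjusted p of 0.0434 (higher in 5 of 6), passed without WT hippocampus replicate 3 (2.44, adjusted p = 0.00211) and without a count filter (1.28, adjusted p = 0.00128).

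**Figure D2:**
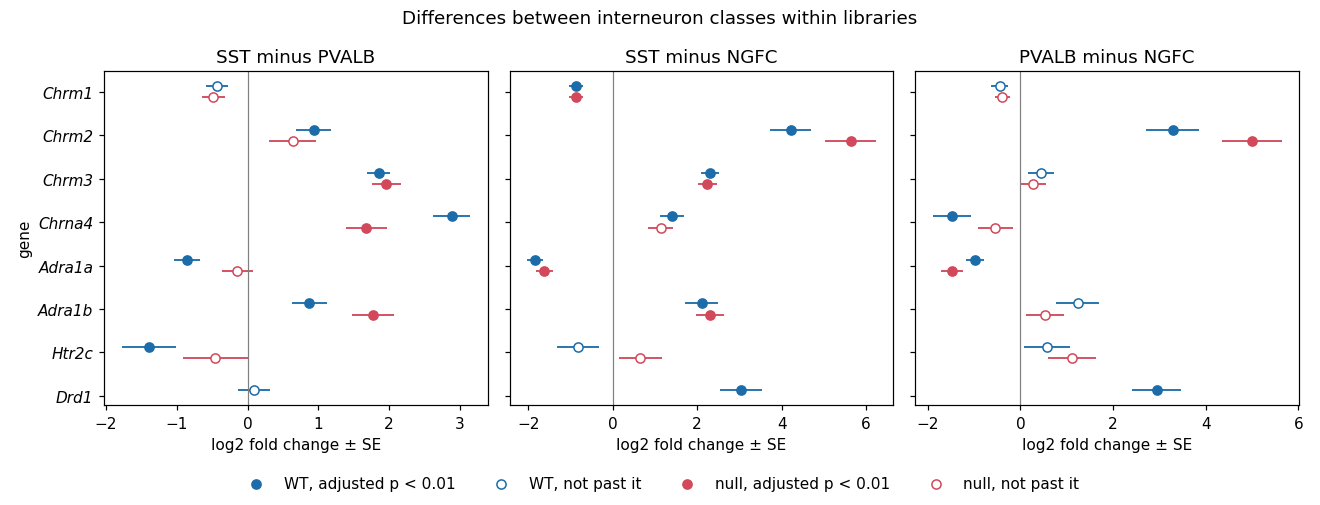
Log2 difference between interneuron classes for each receptor tested in WT and null cells, where points are edgeR estimates, bars are standard errors and filled points passed the threshold. Chrm3, Chrna4 and Adra1b lie on the SST side of the contrast with PVALB cells in both genotypes, and Chrm2 lies on the SST and PVALB sides of the contrasts with NGFC cells.

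The same contrasts were fitted in cells without Grin1. In null cells, where Chrm4, Chrna7 and Drd1 fell under the count filter, 3 of 7 receptors passed between SST and PVALB cells, beside 13.7% of the 9876 genes tested. They were Chrm3 (1.96 ± 0.20), Adra1b (1.77 ± 0.30) and Chrna4 (1.67 ± 0.29, edgeR adjusted p = 3.93e-05, 0.00108 and 0.00137, each higher in SST cells in 4 of 4 libraries). Between SST and NGFC cells 5 passed, beside 16.9% of genes: Chrm2 (5.63 ± 0.60), Adra1b (2.29 ± 0.33) and Chrm3 (2.24 ± 0.22) were higher in SST cells in 3 of 3 libraries, and Adra1a (−1.62 ± 0.21) and Chrm1 (−0.87 ± 0.16) lower in 3 of 3 (edgeR adjusted p = 2.36e-05, 0.000240, 1.31e-05, 0.000108 and 0.00148). Between PVALB and NGFC cells 2 passed, beside 18.7% of genes, namely Chrm2 (4.996 ± 0.64, higher in 3 of 3) and Adra1a (−1.47 ± 0.23, lower in 3 of 3, edgeR adjusted p = 0.000129 and 0.000544). The receptors' medians were 0.63, 1.14 and 0.28, against 0.00, −0.01 and −0.02 for all genes. All of these calls had the same direction as calls made in WT cells. Other values moved apart: Adra1a between SST and PVALB cells was −0.86 in WT and −0.14 in null cells, and Htr2c between SST and NGFC cells was −0.82 in WT and 0.65 in null cells, where neither passed. Whether any class difference itself differed between genotypes was not tested.

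Some null calls rested on 1 library or on the library term. Leaving out null hippocampus replicate 2 ended the Chrna4 call between SST and PVALB cells and the Adra1a call between PVALB and NGFC cells, leaving out null cortex replicate 2 ended the Adra1b call between SST and PVALB cells, and leaving out either ended the Chrm1 call (adjusted p up to 0.0290, 0.174, 0.0190 and 0.0315 over all alternatives). Without the library term, the Chrna4, Adra1b, Adra1a and Chrm1 calls were lost, apart from the Adra1b call against NGFC cells. Chrna4 between SST and NGFC cells (1.14, edgeR adjusted p = 0.0124, higher in 3 of 3) passed once the Chodl cluster was left out (1.29, adjusted p = 0.00337). Drd1, at 10.5 ± 10.1 CPM in the null SST class with TH cells and 1.49 ± 1.39 in null NGFC cells, passed between these classes under DESeq2 (2.75, adjusted p = 0.00826, higher in 3 of 3) and in edgeR at resolution 0.6 (2.68, adjusted p = 0.00307). Without a count filter, edgeR also passed Drd1 (2.75) and Chrna4 (1.17) between null SST and NGFC cells, Drd1 (2.01) and Htr2c (1.10) between null PVALB and NGFC cells, and Chrm2 (0.68) between null SST and PVALB cells.

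The SST class was not uniform. A small cluster marked by Chodl held 43.6, 68.7 and 38.8% of the class’s Chrm2 UMIs across the 3 libraries of WT cortex, and 44.4 and 64.0% across those of null cortex, but 5.26, 25.4 and 2.88% in WT hippocampus and 10.3 and 8.66% in null hippocampus. Chodl, with Nos1 and Npy, marks SST cells with long-range axons. Enough Chodl cells came from 6 libraries: WT cortex replicates 1, 2 and 3, and replicate 2 of WT hippocampus, null cortex and null hippocampus. In these 6 libraries of both genotypes, Chrm2 stood at 197.4 ± 58.1 CPM in the Chodl cluster and at 34.4 ± 10.2 in the rest of the class. The cluster was higher in 6 of 6 libraries. Adra1a (68.1 ± 17.9 against 16.2 ± 3.50) and Drd1 (58.4 ± 12.96 against 8.49 ± 3.84) were also higher in 6 of 6, and Adra1b (70.6 ± 49.7 against 13.9 ± 3.24) in 5 of 6. For Adra1b the excess lay in cortex, where the cluster held 36.4, 54.9 and 37.8% of the class’s UMIs in WT and 76.5% in null replicate 2. In WT hippocampus replicate 2 it held 0%. In null hippocampus replicate 2 it held 4.57%, beside 3.22% of the UMIs of all genes. The SST receptors Chrm3 (10.2 ± 5.59 against 32.6 ± 7.41) and Chrna4 (0.489 ± 0.904 against 22.0 ± 8.31) were lower in the Chodl cluster in 6 of 6. These are descriptions, since the cells were clustered on other genes of the same data.

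The Chodl cluster also varied between libraries. It made up 5.37, 13.1 and 3.98% of SST-class cells in WT cortex replicates 1, 2 and 3, 0.348, 5.32 and 0.319% in WT hippocampus, 3.57 and 23.3% in null cortex and 1.16 and 2.37% in null hippocampus. The libraries with the largest shares, null cortex replicate 2 and WT cortex replicate 2, were also those with the most Chrm2 in the SST class, 99.8 and 84.9 CPM. Without this cluster the WT mean of Chrm2 in the SST class fell from 44.1 ± 20.8 to 29.1 ± 4.61 CPM. In the fit without it, chosen after seeing the data, Chrm2 (0.22), Adra1b (0.34) and Htr2c (−1.33) no longer passed between SST and PVALB cells (edgeR adjusted p = 0.451, 0.381 and 0.0109, with 4, 6 and 6 of 6 libraries in the stated direction in the whole class). Chrna4 (3.01), Chrm3 (1.93) and Adra1a (−1.31) passed. Drd1 turned from 0.10 to −0.51 and did not pass (edgeR adjusted p = 0.0517, higher in 3 of 6 libraries in the whole class). In null cells without the cluster, Adra1b went from 1.77 to 0.99 and still passed, Chrm2 went from 0.63 to 0.10 and Adra1a from −0.14 to −0.64, neither passing, all between SST and PVALB cells.

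Other SST clusters carried the Chrm3 and Chrna4 signal, where libraries of both genotypes with enough cells are counted. Chrna4 was highest in the cluster led by Myh13, Myh8 and Reln, at 49.9 ± 24.0 CPM against 15.2 ± 8.01 in the rest of the class (higher in 8 of 8 libraries). A Gpx3 and Myh8 cluster followed with 28.4 ± 14.1 against 12.9 ± 3.71 (4 of 4). The share of the Gpx3 cluster in replicate 1 was 36.8 and 17.4% in WT cortex and hippocampus, and 7.14 and 20.9% in null. In the later replicates, with version 3 reagents, it was at most 1.62%, so this cluster cannot be told apart from reagent version. The Myh13 cluster made up 1.79% of the class in WT cortex replicate 1, 32.6 and 33.4% in replicates 2 and 3, and 33.3% in null cortex replicate 1. Its share was 2.79, 34.7 and 23.3% in WT hippocampus replicates 1, 2 and 3. In null cortex replicate 2 it was 13.7%, and in null hippocampus replicates 1 and 2 it was 2.33 and 16.3%. Among the libraries with version 2 reagents, only null cortex replicate 1 held more than 2.79%. The Crh and Tac2 cluster had the highest mean of Chrm3, 44.9 ± 19.2 against 23.8 ± 8.95 CPM (9 of 10). The Myh13 cluster, with 39.9 ± 15.4 over 8 libraries, lay within its spread. In the TH cluster, Chrm2 (85.7 ± 32.9 against 42.025 ± 28.3, 8 of 8), Drd1 (32.5 ± 14.1 against 9.29 ± 9.59, 7 of 8) and Chrm1 (26.6 ± 6.02 against 17.4 ± 3.42, 7 of 8) were above the SST cells.

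PVALB cells were split as sharply, again over libraries of both genotypes. In the cluster led by Tac1 and Pvalb, Htr2c stood at 50.0 ± 42.3 CPM against 1.39 ± 3.15 in the other PVALB cells, Adra1a at 40.8 ± 13.5 against 11.7 ± 11.5, and Adra1b at 10.8 ± 6.98 against 3.32 ± 2.88, each higher in 8 of 8 libraries. The Pthlh cluster had almost no Htr2c (0.448 ± 1.27 CPM) and more Chrm1, 41.9 ± 8.94 against 23.9 ± 6.48 (8 of 8). In the Crabp1 cluster, Chrm2 was higher than in other PVALB cells in the 3 libraries with at least 10 of its cells (WT cortex replicates 1 and 3 and null cortex replicate 2), 56.5 ± 32.5 against 18.2 ± 6.04 CPM, while Chrm1 was lower, 4.99 ± 4.91 against 23.9 ± 8.13. Among NGFC cells, the clusters could not be compared as free of library: 99.6% of NGFC cells of WT hippocampus replicate 2 fell in a cluster that held 2.08 to 30.9% of those in the other WT libraries. In the 5 libraries with enough cells of both, Htr2c was lower in that cluster than in the other NGFC cells in 5 of 5 (3.999 ± 5.51 against 7.56 ± 8.53 CPM). All NGFC cells of WT cortex held only 2 Htr2c UMIs, and those of null cortex 1. WT hippocampus replicate 2, not among the 5, had the highest NGFC level of Htr2c, 48.8 CPM. These values therefore do not show that the cluster is low in Htr2c.

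**Figure D3:**
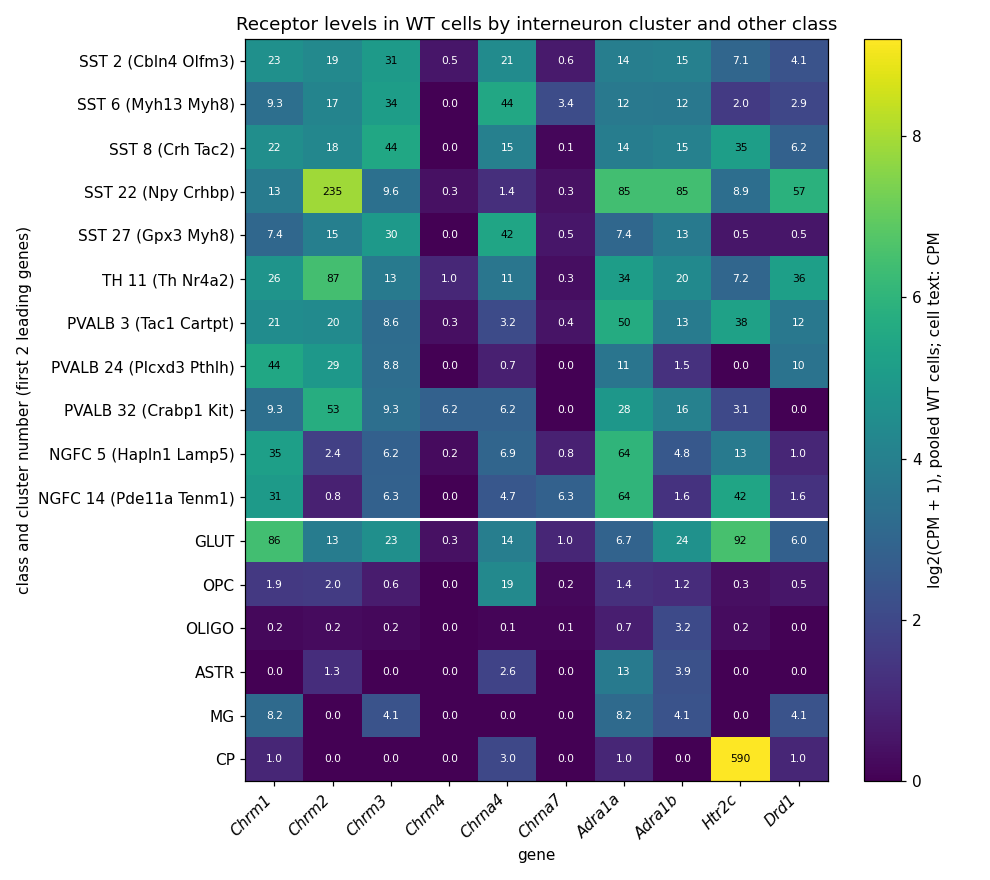
Level of each receptor in each interneuron cluster and each other class, WT cells pooled, with colour on a log2(CPM + 1) scale and the CPM written in each field. Among interneuron clusters, pooled Chrm2, Adra1b and Drd1 are highest in the Chodl cluster (SST 22) and pooled Chrna4 in the Myh13 and Myh8 cluster (SST 6).

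The comparison of regions asked whether the same class carries different receptors in hippocampus and cortex. The same sums also differed in RNA of other cells: the summed CPM of oligodendrocyte markers was 563.2, 1480 and 583.3 in cortical and 2162, 4161 and 1589 in hippocampal WT SST cells with TH cells, 179.9 to 1501 against 1988 to 3787 in PVALB cells, and 122.5 to 2670 against 880.5 to 5727 in NGFC cells. In the SST sums, astrocyte markers (51.2 to 56.2 against 77.4 to 212.4) and precursor markers (9.94 to 17.02 against 37.1 to 85.5) also did not overlap between cortex and hippocampus. Markers of cholinergic neurons did not overlap there either but were higher in cortex (12.1 to 26.6 against 0.530 to 7.01). They were 0.316 to 2.75 against 0 in PVALB sums and 0 against 2.26 to 6.57 in NGFC sums. In the PVALB sums, precursor markers did not overlap either (18.0 to 26.5 against 37.9 to 89.2). Their part in the regional differences was not tested. In WT SST cells Chrna4 held 27.3, 26.4 and 23.2 CPM in cortex and 12.2, 13.3 and 15.4 in hippocampus, so all 3 hippocampal libraries lay below all 3 cortical ones. Htr2c was 8.79, 20.0 and 15.9 CPM in cortex and 3.71, 7.71 and 4.41 in hippocampus, again without overlap, and Drd1 was 14.3, 25.8 and 9.36 against 4.24, 7.01 and 7.44. The log2 differences, hippocampus minus cortex, were −0.96 ± 0.24, −1.61 ± 0.42 and −1.43 ± 0.44 (edgeR adjusted p = 0.199, 0.225 and 0.341, lower in 3 of 3 hippocampal libraries each). None of the 8 receptors tested passed, which makes 0 calls where 0.042% of 11913 genes passed. At an unadjusted p under 0.05 there were 3 and with DESeq2 0, and the median was −0.74 for the receptors and 0.02 for all genes. WT libraries of the same replicate number deviated together, so the replicate number was also used as a block. With the block 237 genes passed in place of 5, and Htr2c was among them (−1.60 ± 0.29, edgeR adjusted p = 0.00585, lower in hippocampus in 3 of 3 replicates).

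Within clusters the regional differences were uneven. Pooled over WT libraries, Chrna4 was 27.8 CPM in cortical and 5.39 in hippocampal cells of the Cbln4 and Calb2 cluster, but 45.7 and 38.7 in the Myh13 and Myh8 cluster. Htr2c was 41.6 CPM in cortical and 5.46 in hippocampal cells of the Crh and Tac2 cluster, and 7.08 and 7.32 in the Cbln4 and Calb2 cluster. The share of each cluster in the class also varied by library, and its part in the class difference was not tested.

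In PVALB cells, Adra1b held 20.2, 12.3 and 13.3 CPM in WT cortex and 5.84, 1.75 and 1.19 in WT hippocampus, where only 4 UMIs were counted. Adra1a held 35.8, 57.8 and 46.0 against 26.3, 29.7 and 22.6. For both receptors the regions did not overlap, at log2 differences of −2.63 ± 0.63 and −0.85 ± 0.31 (edgeR adjusted p = 0.346 and 0.822, lower in 3 of 3 hippocampal libraries each). Of 6 receptors tested 0 passed, where 0.0342% of 8782 genes did. There were 2 at an unadjusted p under 0.05 and 0 with DESeq2, and the median was 0.08 against 0.02 for all genes. The block gave 46 genes in place of 3 and no receptor.

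NGFC cells showed the widest regional gap, in Htr2c. The WT cortex libraries had 0, 2.40 and 1.54 CPM, from 2 UMIs in all, and the WT hippocampus libraries 32.1, 48.8 and 11.9 CPM from 114 UMIs. The gene fell under the count filter, so the difference has no test in the filtered fit, and it passed when no filter was used (log2 difference 4.33 ± 0.78, edgeR adjusted p = 4.07e-05, higher in 3 of 3 hippocampal libraries). Choroid plexus cells, rich in Htr2c, were caught in hippocampal libraries, and Ttr, which they express strongly, was also counted. WT hippocampal choroid plexus cells, 133 of 149 of them from replicate 3, held 0.240 Htr2c UMIs per 100 Ttr UMIs. NGFC cells of the same region held 67.5 per 100 when pooled, but their Ttr differed between libraries. It stood at 53.8 CPM in replicate 3 and 2.57 in replicate 1, and all choroid plexus markers summed to 2.81 in replicate 2. The part of choroid plexus RNA in the Htr2c difference was not tested. Adra1a had the reverse pattern, with 97.02, 108.1 and 96.9 CPM in cortical and 18.0, 60.0 and 59.9 in hippocampal NGFC cells (log2 difference −1.07 ± 0.42, edgeR adjusted p = 0.9999, lower in 3 of 3), and −0.70 without WT hippocampus replicate 1. Of 2 receptors tested, 0 passed, beside 0% of 7842 genes (1 receptor at an unadjusted p under 0.05 and 0 with DESeq2). The medians were −0.44 and 0.01, and the block gave 7 genes, none a receptor.

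In the filtered edgeR fits, no receptor passed between null and WT cells in any class or region tested. Markers of other cells also differed between genotypes in the cortical SST sums with TH cells: the summed CPM of oligodendrocyte markers was 143 and 315 in null and 563.2, 1480 and 583.3 in WT libraries, and that of astrocyte markers 103.2 and 100.1 against 51.2 to 56.2. Their part in the genotype comparisons was not tested. In cortical SST cells 0 of 8 receptors passed edgeR, beside 0% of 12876 genes, with 0 receptors at an unadjusted p under 0.05 and 0 with DESeq2, and medians of −0.05 for the receptors and −0.02 for all genes. In hippocampal SST cells 0 of 8 passed, beside 0% of the same genes, with 1 receptor at an unadjusted p under 0.05 and 0 with DESeq2, and medians of −0.00 and −0.03. That receptor was Htr2c, with 5.77 and 21.3 CPM in null and 3.71, 7.71 and 4.41 in WT hippocampus (log2 difference 1.58 ± 0.63, edgeR adjusted p = 0.999, higher than the WT mean in 2 of 2 null libraries), so the groups overlapped. Over the alternatives this difference ranged from 0.26, without null hippocampus replicate 2, to 2.06, without null hippocampus replicate 1. Adra1a held 7.42 and 15.39 CPM in null and 15.44 to 21.0 in WT hippocampus, just without overlap (log2 difference −0.55). In cortex Chrna4 held 34.0 and 12.0 CPM in null and 23.2 to 27.3 in WT libraries, and Chrm3 35.2 and 20.2 against 26.6 to 34.1, so that for each gene 1 null library lay above and 1 below the WT range.

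In cortical PVALB cells, Htr2c held 0 and 7.39 CPM in the null libraries and 20.2, 47.0 and 28.8 in the WT libraries. Drd1 held 7.19 and 4.62 against 12.8, 12.7 and 10.6, and Adra1b 10.8 and 8.93 against 20.2, 12.3 and 13.3. None of the 3 overlapped between genotypes. How many of all genes were separated in this way was not counted, here or in the other comparisons of genotype and region. For Htr2c and Drd1 the log2 differences were −2.37 ± 0.77 and −1.24 ± 0.50 (edgeR adjusted p = 0.697 and 0.99975, lower in 2 of 2 null libraries each), and for Adra1b −0.67 ± 0.49. Over the alternatives Drd1 ranged from −1.401 to −0.68 and Htr2c from −8.92 to −1.90. The values −0.68 and −8.92 came from leaving out null cortex replicate 2, which left for Htr2c a single null library at 0, so that −8.92 is no measure of size. Of 7 receptors 0 passed, where 0.0103% of 9687 genes did, with 2 at an unadjusted p under 0.05, 0 with DESeq2, and medians of −0.41 and −0.00. Htr2c passed in the fit without a count filter (−2.39 ± 0.49, edgeR adjusted p = 0.000566, lower in 2 of 2). The zero came from null cortex replicate 1, with 27 PVALB cells, where 3 UMIs would be 10.8 CPM. The Tac1 and Pvalb cluster, which holds the Htr2c, was 70.4 and 47.0% of cortical PVALB cells in the null and 82.0 to 92.2% in the WT libraries. Within that cluster pooled Htr2c was 13.9 CPM in null and 36.9 in WT cortex. The block gave 4 genes in place of 1 and no receptor.

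Hippocampal PVALB cells gave 0 of 7 receptors, beside 0% of 9687 genes (1 at an unadjusted p under 0.05, 0 with DESeq2, medians −0.28 and −0.01). Adra1a held 11.7 and 15.6 CPM in null and 26.3, 29.7 and 22.6 in WT libraries, without overlap (log2 difference −0.86 ± 0.38, edgeR adjusted p = 0.9999, lower in 2 of 2). Chrm1 (16.4 and 26.0 against 29.7 to 37.9, log2 difference −0.51 ± 0.37) and Chrm3 (4.69 and 5.35 against 7.15 to 14.6, −0.96 ± 0.57) did not overlap either. Adra1b held 9.39 and 6.57 against 5.84, 1.75 and 1.19 (1.58 ± 0.74, edgeR adjusted p = 0.9999, higher in 2 of 2). Markers of oligodendrocyte precursors also did not overlap in these PVALB sums. They summed to 30.5 and 13.4 CPM in null and 37.9, 89.2 and 38.1 in WT libraries, while oligodendrocyte and astrocyte markers overlapped. The part of these markers in the genotype differences was not tested. Hippocampal NGFC cells gave 0 of 3 receptors, beside 0% of 9728 genes (0 at an unadjusted p under 0.05 and 0 with DESeq2, medians −0.39 and −0.06). Cortical NGFC cells had 1 null library with enough cells and could not be tested. There, that library held 88.3 CPM of Adra1a against 96.9 to 108.1 in WT, and 40.5 CPM of Chrm1 against 23.1 to 43.3.

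Whether the genotype effect differed between regions was tested as an interaction. In SST cells 0 of 8 receptors passed, beside 0% of 12876 genes (edgeR, 1 at an unadjusted p under 0.05, 0 with DESeq2, medians −0.25 and 0.00). In PVALB cells 0 of 7 passed, beside 0% of 9687 genes (2 at an unadjusted p under 0.05, 0 with DESeq2, medians −0.44 and −0.01). The largest values were those of Htr2c in PVALB cells (2.54 ± 0.99) and SST cells (1.93 ± 0.86) and of Adra1b in PVALB cells (2.25 ± 0.89), with edgeR adjusted p of 0.99999, 0.99994 and 0.99999. For Htr2c in PVALB cells, 2 of 2 cortical null libraries lay below the WT mean and 1 of 2 hippocampal ones above it. A value that missed the threshold does not show that the genotypes did not differ.

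For 6 of the receptors, the genes most alike in level over the 23 WT sums of library and class were picked among 9927 genes. A shared class pattern follows from this choice. For Chrna4 they were Ache, Ppp1r14c and BC089491 (Pearson r = 0.879 for Ache, which encodes acetylcholinesterase), for Chrm3 Kcnmb4, Pitpnc1 and Grik3 (0.864 for the first), and for Chrm2 Whrn, Cdkn1a and Utrn (0.936). For Adra1a they were Rgs7bp, Pkp4 and Abhd6 (0.883), for Htr2c Mon1a, Cntnap5a and DNAJC19 (0.803) and for Chrm1 Ddx26b, Ccdc149 and Stard7 (0.788). The sums share libraries and depth, so these correlations describe a pattern and are not tests. Adra1b, Chrm4 and Chrna7 did not reach the 20 CPM that the comparison required.

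Receptors of the same families outside the 10 were also compared. Of 39 others, 7 were tested between classes, and the highest in WT interneurons were Hrh3 (36.5 ± 10.5 CPM), Chrnb2 (26.9 ± 6.43), Adrb1 (16.1 ± 4.22), Htr7 (14.5 ± 11.8) and Adra2c (12.4 ± 7.63). Between WT SST and PVALB cells 4 passed: Adra2c (2.07), Htr1a (2.06) and Htr7 (1.02) were higher in SST cells and Adrb1 (−0.92) lower. Between WT SST and NGFC cells 6 passed, with Htr1a (5.78), Adra2c (4.43), Htr1f (1.25) and Hrh3 (0.67) higher and Adrb1 (−1.30) and Htr7 (−1.03) lower in SST cells. Between WT PVALB and NGFC cells 3 passed, Htr1f (1.56) and Hrh3 (0.73) higher and Htr7 (−2.04) lower. DESeq2, which was not limited to the 7 tested in edgeR, gave 7, 10 and 4 for these WT contrasts. The shares of all genes that passed in edgeR were 22.7, 24.6 and 24.1%, as above. In null cells 3, 4 and 6 passed in the same order of contrasts (13.7, 16.9 and 18.7% of all genes), of which 3, 4 and 3 were shared with WT, all in the same direction. Chrnb2, the partner of Chrna4 in its receptor, did not share its class pattern: 25.6 ± 6.04 CPM in the WT SST class and 27.8 ± 4.69 in PVALB cells (log2 difference −0.16, edgeR adjusted p = 0.319, lower in 5 of 6).

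Among 35 genes that act with these receptors, 22 were tested between classes. Unlike the receptors, these genes were not taken out of the features used for clustering. Some may therefore have helped to form the classes they were tested between. The highest in WT interneurons were Gnas (1762 ± 290 CPM), Ly6h (1652 ± 300), Gnao1 (303 ± 62.8), Gnai1 (291 ± 57.5) and Lypd6 (217 ± 56.9). Between WT SST and PVALB cells 16 passed, 12 of them higher in SST cells, among them Ache (2.81), Lypd6b (2.05), Lypd1 (1.73), Lypd6 (1.69) and Ly6h (0.61), the last 4 of which encode Ly6-type proteins, and Th (3.09), where TH cells are counted in the SST class, so the Th difference follows from how the class was formed. Lynx1, of the same protein family, was lower in SST cells (−0.43). Between WT SST and NGFC cells 14 passed, 11 higher in SST cells, with Lypd6b (4.41), Lypd6 (3.92) and Ache (2.02) among the largest. Between WT PVALB and NGFC cells 11 passed, 6 higher and 5 lower in PVALB cells, such as Lynx1 (1.56) and Gnal (1.401), which encodes Golf, against Gnai1 (−1.13) and Plcb4 (−1.04). With DESeq2 18, 15 and 12 passed in WT. In null cells 9, 12 and 11 passed in edgeR, and 9, 12 and 8 of these were shared with WT in the same direction. In edgeR, 0 other receptors and 0 partners passed in any genotype, region or interaction fit, where 0 to 5 other receptors and 0 to 3 partners per fit had an unadjusted p under 0.05. With DESeq2, 1 other receptor passed for region in WT SST cells.

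The genes lie on GRCm38 at chr19:8663789-8683587 (Chrm1), chr6:36388084-36528414 (Chrm2), chr13:9875486-10360847 (Chrm3), chr2:91927249-91928688 (Chrm4), chr2:181018380-181043546 (Chrna4), chr7:63098692-63212569 (Chrna7), chr14:66635251-66771168 (Adra1a), chr11:43774606-43901210 (Adra1b), chrX:146962513-147197277 (Htr2c) and chr13:54051183-54055705 (Drd1). The authors extended gene ends by 4 kb for counting, and no annotated gene of the same strand lies in that stretch for any of the 10. Genes on the opposite strand were not looked for there. On the opposite strand, the noncoding 9330158H04Rik overlaps the start of Chrm2, Gm26861 that of Chrm3, Gm22820 lies inside Chrm1 near its 3′ end, and the pseudogene Gm47406 lies inside Chrm3. Small or noncoding RNAs lie on the same strand inside Chrm2, Chrm3, Chrna7 and Htr2c, 8 of them in Htr2c.

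Of the 4 receptors that were higher in SST cells than in both PVALB and NGFC cells of WT mice, Chrm3 and Chrna4 passed both contrasts under every alternative run, while Chrm2 and Adra1b did not, and the promoters of the former are shown. RefSeq (GRCm38.p6) gives 300 bases around the start of 8 of the 10 genes, with none for Chrm1 and Adra1a. Capitals mark GGGCGG or its reverse complement. The Chrna4 promoter (chr2:181039128-181039427, minus strand) has a GC content of 74.3% and holds the motif at 3 places. It lies inside the Chrna4 gene as given above, so the annotations place the start differently. The Chrm3 promoter (chr13:10360754-10361053, minus strand) has 57.3% GC and holds the motif at 0 places. The median GC content of all promoters was 52.7%. On either strand, GGGCGG was found in 35.7% of 32851 promoters, CCAAT in 37.4%, TATAAA in 13.6% and TGACGTCA in 1.79%, and neither promoter held any of the last 3.
Chrna4: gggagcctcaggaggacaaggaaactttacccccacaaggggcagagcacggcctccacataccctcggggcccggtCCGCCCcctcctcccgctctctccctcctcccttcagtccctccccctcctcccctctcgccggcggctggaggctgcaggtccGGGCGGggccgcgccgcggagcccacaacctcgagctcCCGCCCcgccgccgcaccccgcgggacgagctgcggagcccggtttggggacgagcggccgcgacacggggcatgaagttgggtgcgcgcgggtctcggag
Chrm3: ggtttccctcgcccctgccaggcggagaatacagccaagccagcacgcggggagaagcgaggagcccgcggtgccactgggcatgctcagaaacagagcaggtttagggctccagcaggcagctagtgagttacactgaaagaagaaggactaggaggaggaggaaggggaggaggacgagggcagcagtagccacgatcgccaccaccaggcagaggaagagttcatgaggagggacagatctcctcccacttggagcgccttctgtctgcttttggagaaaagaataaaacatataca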

How the data were processed

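UMI counts per gene and cell, as deposited by the authors (Cell Ranger 2.1.1 per the labels, 3.0.2 per the matrix header, mm10, gene ends extended by 4 kb), were read without further normalization. Libraries were told apart by barcode suffix and matched to replicates by cell number, since the labels name none. Cells with 200 to 6000 genes and at most 30% mitochondrial UMIs were kept. Seurat 5.3.0 clustered them at resolution 1 without the 10 receptors and related receptors among its features, and clusters were named when at least 3 markers of a class reached 20 CPM and exceeded the mean of all clusters. A cluster was left unnamed if its depth was low for its libraries, or its markers were those of cholinergic neurons, and none of the markers was among its 10 leading genes. Unnamed clusters were left out of the comparisons. CPM were UMIs of a gene scaled to all UMIs of its class, not divided by gene length.

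UMIs were summed per library and class (at least 10 cells) and fitted with edgeR 4.0.16 (TMM, quasi-likelihood, low counts filtered). Classes were compared within libraries (library as a term). Genotypes and regions were compared between libraries, and the genotype by region difference as an interaction. WT cortex and hippocampus libraries of the same number correlated in their deviations across genes (Pearson r 0.454 to 0.777 over 6632 genes in SST cells, 0.401 to 0.646 in PVALB cells and 0.238 to 0.610 in NGFC cells, 3 pairs each), so the replicate number was tried as a block. For WT and null libraries of the same number r was 0.186 to 0.316.

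Intervals are 95% (Wilson for shares, Poisson for UMIs), floors are 3 counts, and both cover counting error only. Alternatives were an adjusted p limit of 0.05, DESeq2 1.42.0, library-size scaling, no mitochondrial genes, no count filter, the block or no library term, sums of 20 cells or more, fits to just the 2 groups, clustering at resolution 0.6 or 1.4, receptors kept among the clustering features, a stricter cell filter (at least 1000 genes, at most 10% mitochondrial UMIs), removal of doublets marked by Scrublet in scanpy 1.11.5 (expected rate 0.06), each library left out, and, chosen after seeing the data, SST cells without the Chodl cluster. Named genes are the 10 receptors, Grin1, other receptors and partners past the threshold (at most 8 per comparison by size of change) or among the 5 highest in WT interneurons, and the 3 genes most alike in level to each receptor of at least 20 CPM in a WT class, which are not given for Drd1. Cluster names and their leading genes were chosen after their values were seen. The receptors and lists were chosen with earlier results of these data known.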

Additional observations from a re-analysis of the deposited data

Results flagged for a closer look

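The regional means of Htr2c lay in opposite directions in SST and NGFC cells. In the filtered edgeR fits the gene did not pass for region in SST cells and fell under the count filter in NGFC cells, and it passed with the replicate block in the former and without a filter in the latter. Hippocampus minus cortex in WT, the difference of mean CPM was −9.647 in the SST class with TH cells and 29.63 in NGFC cells. Every hippocampal library lay below every cortical library in the SST class and above every one in NGFC cells. Whether the regional difference itself differed between the classes was not tested.

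Receptor UMIs also appeared in clusters that were given no class and entered no comparison. A cluster of 480 cells led by Meg3 and Snhg11, which met the markers of no class, at a median of 650 UMIs per cell, held 109.2 pooled CPM of Adra1a (40 UMIs, interval 77.99 to 148.7), above the pooled counting interval of each of the 4 interneuron classes. The pooled groups differ between these: 364 of its cells came from WT cortex, where it held 107.7 CPM (71.6 to 155.7) and NGFC cells held 100.3 (84.2 to 118.6), so the intervals overlapped there. A cluster of 408 cells led by Oxt, Avp and Tacr1, which met 4 of 6 markers of cholinergic neurons but had none of them among its 10 leading genes, held 103.5 pooled CPM of Htr2c and 44.68 of Drd1, again above the pooled intervals of the 4 classes. By group Htr2c ranged from 40.7 CPM in null cortex to 260.3 in null hippocampus, and Drd1 from 8.68 in WT hippocampus, below the TH cells of that group (24.5), to 63.8 in WT cortex. The pooled values join all groups, and the source of these UMIs was not tested.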

How the results depend on the processing

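Of the 44 log2 differences of receptors and Grin1 followed over the alternatives, none reversed its direction: 728 values kept their side of the threshold, 23 came to pass it and 43 no longer passed. Drd1 between SST and PVALB cells in WT, not among these, went from 0.10 to −0.51 without the Chodl cluster (chosen after seeing the data). Among receptor levels, 357 moved by less than the spread between libraries and 3 by more. The class with the highest mean changed for Chrm4 (thinned cells), Adra1b (TH to SST, pooled or without WT cortex replicate 1 or 2 or WT hippocampus replicate 2) and Chrna7 (NGFC to SST, without WT cortex replicate 2).

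Counts of genes between groups were small and moved under several choices. For genotype in SST cells, cortex and hippocampus went from 0 to 1 and 1 at an adjusted p under 0.05, to 2 and 2 with DESeq2 and to 27 and 14 without a count filter, which also gave 2 genes in the SST interaction and 1 in the PVALB interaction. For genotype in cortical PVALB cells, 1 gene became 9 at an adjusted p under 0.05, 11 with DESeq2, 56 without a filter (1 receptor), 0 without doublets, 0 at resolution 1.4, 4 with the block, 12 with only the 2 groups and 0 to 2 with 1 library left out. Hippocampal PVALB cells gave 1 with DESeq2 and 15 without a filter, and hippocampal NGFC cells 1 and 23.

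Region counts went in SST cells from 5 to 31 (adjusted p under 0.05), 113 (DESeq2), 161 (no filter), 237 (block, 1 receptor) and 0 to 5 (1 library left out). In PVALB cells they went from 3 to 7, 25, 86 and 46 in that order, and 0 to 0. In NGFC cells they were 3 (DESeq2), 32 (no filter, 1 receptor) and 7 (block). The block changed no other receptor call.

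Between classes, leaving out the library term lowered the counts for SST minus PVALB, SST minus NGFC and PVALB minus NGFC to 506, 890 and 743 genes in WT and to 359, 764 and 610 in null cells. At an adjusted p under 0.05 the null counts were 2322, 2686 and 3071, and without a filter 2319 and 2760 for the first pair of contrasts. With 1 library left out, SST minus PVALB gave 1435 to 2421 genes in WT and 617 to 1219 in null cells, SST minus NGFC 706 to 1858 and PVALB minus NGFC 527 to 1842 in null cells.

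Receptor counts for SST minus PVALB in WT were 3 with DESeq2, 2 without the library term, 3 without the Chodl cluster (chosen after seeing the data) and 3 to 5 with 1 library left out. Without the library term they were 2 for PVALB minus NGFC in WT, and 1, 3 and 1 in null cells. For PVALB minus NGFC in null cells they were 4 without a filter and 1 to 3 with 1 library left out. Htr2c passed in null cells without null cortex replicate 2, with log2 differences of −1.35 for SST minus PVALB and 1.31 for PVALB minus NGFC. The causes were not tested.

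DESeq2 put the median of all genes at −0.15 and −0.20 for SST minus PVALB and SST minus NGFC in WT, −0.11 for SST minus PVALB in null cells, 0.15 for region in PVALB cells, and −0.19 and −0.25 for the interactions. Fits without a filter put it at up to 0.18. Depth limits what can be said of Chrm4, Chrna7 and the null cortex library with 177 cells.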

Other observations

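The sorted cells outside the interneuron classes carried some of these receptors. Pooled over WT libraries, 874 glutamatergic cells held 85.6 CPM of Chrm1 (Poisson interval 75.4 to 96.8) and 92.0 CPM of Htr2c (81.4 to 103.5), at a median of 1032 UMIs per cell. Oligodendrocyte precursors held 19.2 CPM of Chrna4 (16.0 to 22.9, 124 UMIs). Astrocytes held 12.9 CPM of Adra1a (6.20 to 23.8, 10 UMIs), and oligodendrocytes 3.17 CPM of Adra1b.

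The cluster named as choroid plexus, the tissue that makes cerebrospinal fluid, had the highest pooled Htr2c of the named classes in WT. Its 149 cells of WT hippocampus, 133 of them from replicate 3, held 612.8 CPM (564.6 to 663.9) from 597 UMIs, with the receptor seen in 64.4% of cells and Ttr at 255678 CPM. The 19 cells of WT cortex in this cluster had 0 UMIs of either gene, so the choroid plexus marker Ttr does not bear out the name for them. In 9 cells of null hippocampus Htr2c had 0 UMIs.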
